A study of Mus musculus with 8 samples.

Results

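The genes described here encode the machinery with which a cell presents peptides on major histocompatibility complex (MHC) class II molecules. They are the surface chains H2-Aa, H2-Ab1 and H2-Eb1, the peptide editor genes H2-DMa, H2-DMb1 and H2-DMb2, the invariant chain Cd74 and the transcriptional coactivator Ciita. Every probe carrying one of these gene symbols in the platform annotation was taken, which gave 12 of the 25697 probes on the array and 8 of the 9856 genes tested. All 12 probes were above background on all 8 arrays. RNA of cultured mouse peritoneal macrophages was measured with Mouse Ref-8 v2.0 bead arrays from Illumina, each sample on its own array. The arrays form 4 groups of 2. They are macrophages of a line labelled FcgKO (KO, read here as lacking the Fc receptor gamma chain) given interleukin-4 (IL-4) at 10 ng/ml for 6 h, the same KO cells left unstimulated, wild-type (WT) macrophages given IL-4 at that dose and time, and unstimulated WT cells. All 4 groups are labelled C57BL/6. All were kept overnight in RPMI with 10% fetal bovine serum and 15% supernatant of L929 cells, which supplies M-CSF, a growth factor of macrophages, and cells that had not adhered were thrown away. The labels number the duplicates but tie none to an animal, so the p-values speak only for the spread of duplicates, perhaps a technical one, and precision is limited by the small number of arrays. No label limits the deletion to macrophages.

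Class II molecules are pairs of an alpha and a beta chain that carry peptides from endosomes to the surface of macrophages, dendritic cells and B cells, where CD4+ T cells read them. The invariant chain, CD74, guards the empty groove on the way, and H2-DM, a pair of an H2-DMa chain with a beta chain from H2-DMb1 or H2-DMb2, removes its last fragment and selects peptides that bind well. CIITA, recruited by factors bound to the X and Y boxes of class II promoters, switches these genes on together, and IL-4 is known as a cytokine that raises class II on mouse B cells.

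The X and Y box stretches of the promoters are shown because they are the shared element through which the members are known to be controlled together. RefSeq promoter windows (250 bases before to 50 after a start, assembly GRCm38.p6) were at hand for 5 of the 8 members, H2-DMa among them with 2 windows. Capitals mark the letters found by search, AACNGATG for the X box core, TGACGTCA for a cyclic AMP element and GATTGG for the Y box, each sought on both strands, and no match overlapped another.
H2-DMb2: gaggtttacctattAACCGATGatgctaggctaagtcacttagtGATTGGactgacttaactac
H2-DMb1: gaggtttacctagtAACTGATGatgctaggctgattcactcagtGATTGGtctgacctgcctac
H2-Aa: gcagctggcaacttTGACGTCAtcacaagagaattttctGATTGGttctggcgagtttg
H2-Eb1: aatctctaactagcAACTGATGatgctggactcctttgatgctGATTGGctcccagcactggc
The H2-DMb2 stretch is chr17:34145114-34145177 on the plus strand, and the H2-DMb1 stretch is chr17:34153085-34153148 on the plus strand. The H2-Aa stretch is chr17:34287853-34287911 on the minus strand, and the H2-Eb1 stretch is chr17:34305764-34305826 on the plus strand. They end 72, 43, 30 and 41 bases before the annotated start, in that order of genes. From the first base of the upstream motif to the first base of the Y box there are 30 bases in H2-DMb2, 30 in H2-DMb1, 25 in H2-Aa and 29 in H2-Eb1. That motif is the cyclic AMP element in H2-Aa and the X box core in the others, so the 25 bases cannot be compared with the rest. Of 32851 mouse promoter windows of this length, 2.32% hold the X box core, 1.79% the cyclic AMP element, 16.1% the Y box and 0.335% the X box core together with the Y box. The H2-DMa windows hold a Y box 199 to 194 bases before the start in 1 window and no other match, which says only that these letters are not in them. The whole H2-DMb1 and H2-DMb2 windows are identical at 210 of 342 aligned columns (61.4%), against 43.3% to 50.6% for the other pairs of members. The coding genes of this pair are close relatives too, so a probe of one may also catch RNA of the other, and the separate assignment of their signals is uncertain.

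The gene deleted in the KO line served as a check of the labels. Fcer1g, which encodes the gamma chain, lay between 85.7 and 91.8 intensity units on the 4 KO arrays, below background on each, and between 9915 and 12988 on the 4 WT arrays. Of 7 macrophage markers, 5 were tested and their summed intensity ran from 25076 to 28222 on the 8 arrays. Most of that sum was Lyz2, at 16825 to 18303, so its narrow range says little of the others. Cd14 ran from 3459 to 7142 and Adgre1 from 1671 to 2991. Of 15 B cell markers, a cell type rich in class II, 11 were tested, and Cd79a and Cd79b, signalling chains of the B cell receptor named after their values were seen, were above background on all 8 arrays. Of 12 markers of dendritic cells and small peritoneal macrophages, other class II-rich cells, 7 were tested. Dpp4, Ccr7, Batf3 and Clec4b1 were above background on all 8 arrays, the other 3 tested on 4 to 6, and the 5 not tested on 0 to 2, with Flt3, Xcr1 and Ccr2 at 0.

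IL-4 was followed by higher RNA of the peptide editor genes in both genotypes. In the main fit, which has no replicate block, the surface chains and Ciita did not pass the test in either. H2-DMa, H2-DMb1 and H2-DMb2 rose 1.57- to 2.03-fold in KO macrophages and 1.42- to 2.13-fold in WT macrophages. Cd74 rose 1.29-fold in KO macrophages, and its WT difference of 1.18-fold did not pass. Thus 4 of the 8 genes were called higher in KO, where 9.39% of all genes were, and 3 of 8 in WT, where 7.81% of all genes were (limma, Benjamini-Hochberg adjusted p under 0.05 over 9856 genes). The same 3 genes, those of H2-DM, were called higher in both genotypes, as were 5.8% of all genes. With the replicate number as a block within genotype, H2-Aa and H2-Ab1 also passed in KO, and H2-Ab1, Ciita and Cd74 in WT. In that fit 11.8% of all genes were higher in KO and 10.4% in WT. The labels do not say what a replicate number shares. The estimate was positive for 8 of 8 members in each genotype, against 48.07% of all genes in KO and 46.12% in WT. The median log2 change of the members was 0.40 in KO and 0.44 in WT, beside −0.01 and −0.02 over all genes. These are descriptions of a list chosen with earlier results known. In such bulk RNA, a shift in the share of a cell type and a shift in RNA per cell cannot be told apart.

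**Figure D1:**
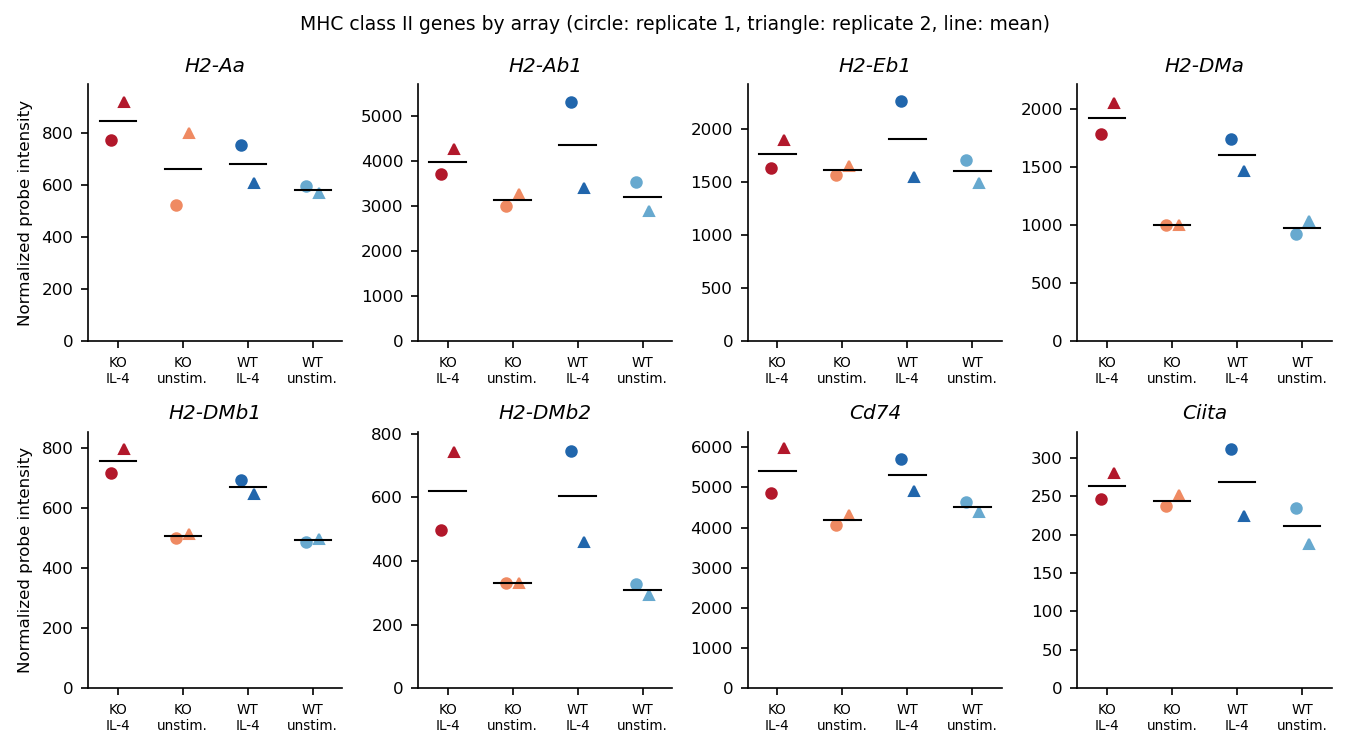
Deposited normalized intensity (linear axis from 0) of each class II gene on each array, by group, with circles for replicate 1, triangles for replicate 2 and a line at the group mean. The IL-4 arrays of H2-DMa, H2-DMb1, H2-DMb2 and Cd74 all lie above the unstimulated arrays of both genotypes, and the surface chains and Ciita overlap.

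H2-DMa, the alpha chain of the peptide editor, had normalized intensities of 1786 and 2047 in KO macrophages with IL-4, against 996 on both unstimulated KO arrays. It had 1741 and 1468 in WT macrophages with IL-4, against 925 and 1029.6 in unstimulated WT cells. All 4 IL-4 arrays were above all 4 unstimulated arrays. On the log2 scale after background correction with an offset of 16, the scale of every change given here, the difference was 0.99 ± 0.11 (SE; limma adjusted p = 3.542e-05) in KO. In WT it was 0.75 ± 0.11 (adjusted p = 0.0003972). The order of the 4 group means was KO with IL-4, WT with IL-4, unstimulated KO and unstimulated WT, and neither pair of neighbours that differs in genotype passed the test.

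H2-DMb1, a beta chain gene of the editor, had intensities of 715 and 797 in KO macrophages with IL-4, against 499 and 512 in unstimulated KO cells. WT macrophages had 694 and 647 with IL-4, against 487 and 497 unstimulated. Its duplicates lay closer together than the gap between conditions in both genotypes. The log2 change was 0.65 ± 0.10 in KO (limma adjusted p = 0.0005009) and 0.50 ± 0.10 in WT (adjusted p = 0.003669). The calls of H2-DMa and H2-DMb1 held under every alternative run and without each array in turn, with changes of 0.89 to 1.09 and 0.56 to 0.73 in KO and of 0.62 to 0.88 and 0.45 to 0.56 in WT when an array was left out.

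H2-DMb2, the other beta chain gene, had intensities of 499 and 743 in KO macrophages with IL-4, against 332 on both unstimulated KO arrays. In WT it had 745 and 461 with IL-4, against 327 and 292 unstimulated. The groups did not overlap, but the IL-4 duplicates of each genotype stood far apart, the high one being replicate 2 in KO and replicate 1 in WT. The change was 1.02 ± 0.22 in KO (limma adjusted p = 0.005256) and 1.09 ± 0.22 in WT (adjusted p = 0.00399). The call ended in both genotypes with a robust variance estimate (adjusted p = 0.0805 in KO and 0.07305 in WT) and in KO without KO IL-4 replicate 2 (log2 0.70, adjusted p = 0.06887). In WT it held without WT IL-4 replicate 1 at a smaller change (0.70), with an adjusted p of at most 0.0478 over the arrays left out in turn.

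The H2-DM genes had larger estimates than the surface chains. The mean log2 intensity of the 3 H2-DM genes was higher with IL-4 by 0.89 in KO and 0.78 in WT, and that of H2-Aa, H2-Ab1 and H2-Eb1 by 0.30 in KO and 0.30 in WT. H2-DM minus surface chain means were −1.02 and −0.92 in KO with IL-4, against −1.41 and −1.69 in unstimulated KO. They were −1.16 and −1.02 in WT with IL-4, against −1.66 and −1.48 in unstimulated WT. The 4 IL-4 arrays thus stood above the 4 unstimulated arrays, by 0.58 in KO and 0.48 in WT on average. Only the shift between arrays can be read here, because the level of one probe set against another has no meaning, and no test was made of a grouping chosen with results known.

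**Figure D2:**
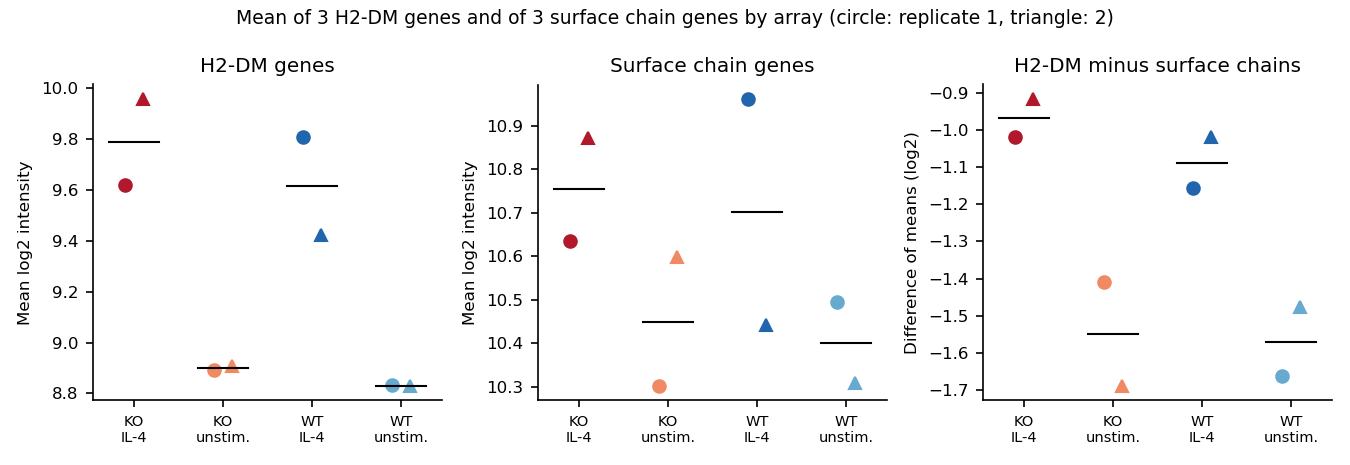
Mean log2 intensity of the 3 H2-DM genes (left), of the 3 surface chain genes (middle) and their difference (right) on each array, with circles for replicate 1, triangles for replicate 2 and a line at the group mean; the axes are log2 and do not start at 0. The difference lies between −1.16 and −0.92 on the IL-4 arrays and between −1.69 and −1.41 on the unstimulated arrays.

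Cd74, the invariant chain, had intensities of 4849.5 and 5984 in KO macrophages with IL-4, against 4057 and 4313 in unstimulated KO cells. WT macrophages had 5712 and 4914 with IL-4, against 4637 and 4391 unstimulated. As for the H2-DM genes, the lowest IL-4 array was above the highest unstimulated array, a pattern of 4 of the 8 members and of 12% of all genes. The change passed in KO (0.37 ± 0.11, limma adjusted p = 0.02799) and not in WT (0.23 ± 0.11, adjusted p = 0.1729), and the difference between these responses, 0.14 ± 0.15, did not pass (adjusted p = 0.9083). The KO call was fragile. It ended without KO IL-4 replicate 2 (log2 0.22, adjusted p = 0.2944) and without unstimulated KO replicate 1 (0.33, 0.1519) or 2 (0.41, 0.06846), with the mean of its probes (adjusted p = 0.05687) and with eBayes without a trend (0.07448). With the replicate number as a block within genotype, the KO call held and the WT change passed (limma adjusted p = 0.03452). The labels do not say what a replicate number shares. A further Cd74 probe, ILMN_1221817, gave 0.39 in KO (adjusted p = 0.06884) and 0.29 in WT (adjusted p = 0.1998) when every probe was tested on its own.

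H2-Ab1, the beta chain of the I-A molecule, had intensities of 3701 and 4262 in KO macrophages with IL-4, against 2995 and 3254 in unstimulated KO cells. In WT it had 5303 and 3407 with IL-4, against 3526 and 2887 unstimulated, so that the WT groups overlapped and the KO groups did not. The changes were 0.35 ± 0.17 in KO (limma adjusted p = 0.1663) and 0.42 ± 0.17 in WT (adjusted p = 0.1052). With the same estimate, the KO response passed when WT IL-4 replicate 1 (adjusted p = 0.04222) or 2 (0.04153) was left out of the shared variance. H2-Ab1 has 4 probes, which share the RNA of each array and are not replicates. All 4 gave positive estimates in both genotypes, 0.30 to 0.44 in KO and 0.33 to 0.56 in WT. Tested one by one, 1 of 4 passed in KO (ILMN_2913716, 0.44, adjusted p = 0.04141) and 2 of 4 in WT (ILMN_2913716, 0.47, adjusted p = 0.03335, and ILMN_2631423, 0.56, adjusted p = 0.02067). Over all members, 5 of 12 probes passed in each genotype, against 17.5% of 13579 probes in KO and 15.2% in WT.

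**Figure D3:**
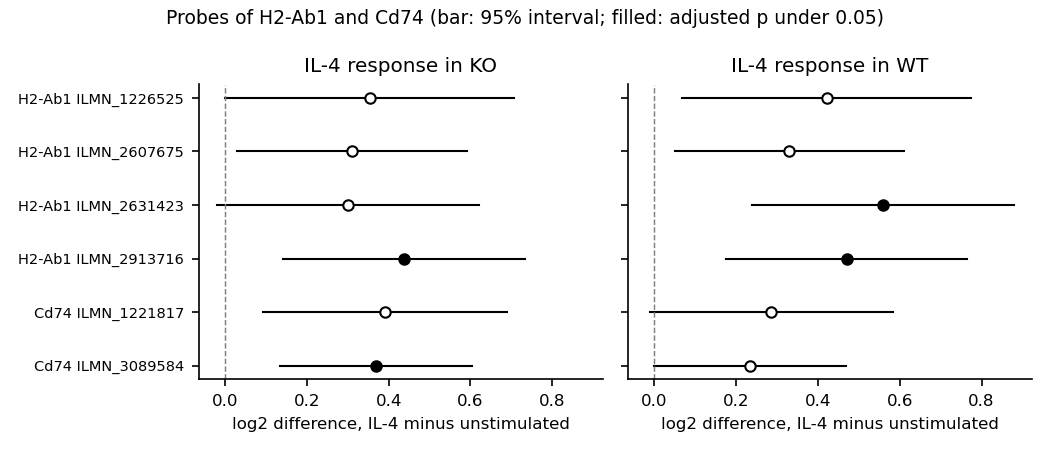
Log2 difference of IL-4 minus unstimulated for each probe of H2-Ab1 and Cd74, in KO (left) and WT (right), with 95% intervals; filled points have an adjusted p under 0.05 over all probes. Every estimate is above 0, and the filled points are ILMN_2913716 and ILMN_3089584 in KO and ILMN_2631423 and ILMN_2913716 in WT.

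H2-Aa, the alpha chain of I-A, had intensities of 774 and 921 in KO macrophages with IL-4, against 522 and 799.55 in unstimulated KO cells. The WT values were 754 and 609 with IL-4, against 595 and 571 unstimulated. The unstimulated KO duplicates differed more from each other than the KO condition means did. Neither response passed (KO 0.43 ± 0.18, limma adjusted p = 0.1281, WT 0.24 ± 0.18, adjusted p = 0.429), and the KO estimate differed with the unstimulated array left out. It passed without unstimulated KO replicate 2 (0.77, limma adjusted p = 0.007361) and was 0.08 without replicate 1 (adjusted p = 0.8076).

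H2-Eb1, the beta chain of the I-E molecule, had intensities of 1628 and 1900.5 in KO macrophages with IL-4, against 1569.6 and 1655 in unstimulated KO cells. In WT it had 2266 and 1546 with IL-4, against 1706 and 1494 unstimulated. The conditions overlapped in both genotypes, and H2-Eb1 had the smallest change of the 8 members in KO. The changes were 0.13 ± 0.15 in KO (limma adjusted p = 0.6205) and 0.24 ± 0.15 in WT (adjusted p = 0.3394). Its partner chain H2-Ea, whose gene is disabled in C57BL/6 mice so that no I-E reaches the surface, was above background on 0 of 8 arrays.

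Ciita, the coactivator of the whole family, had intensities of 246 and 281 in KO macrophages with IL-4, against 237 and 251 in unstimulated KO cells. The WT values were 312 and 224 with IL-4, against 234 and 188 unstimulated. Both conditions overlapped in each genotype. The changes were 0.14 ± 0.19 in KO (limma adjusted p = 0.6801, 95% interval −0.27 to 0.56) and 0.46 ± 0.19 in WT (adjusted p = 0.1327, 0.04 to 0.87). Counted over all members, the IL-4 arrays lay above the unstimulated arrays of the same genotype for 5 of 8 genes in KO and 5 of 8 in WT, as they did for 27.9% and 25.7% of all genes.

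In WT, the values of the surface chains and Ciita differed with the IL-4 array left out. Without WT IL-4 replicate 2, 6 of 8 members passed as higher, where 4.87% of all genes did, H2-Ab1 (0.75, limma adjusted p = 0.003572), Ciita (0.77, 0.02015) and H2-Eb1 (0.52, 0.02279) joining the H2-DM genes. Without WT IL-4 replicate 1, only the 3 H2-DM genes passed, where 5.4% of all genes were called higher, and the changes were 0.10 for H2-Ab1, 0.14 for Ciita, −0.05 for H2-Eb1 and 0.07 for H2-Aa. The members moved together between duplicates. Replicate 2 exceeded replicate 1 by more than 0.001 log2 for 8 of 8 members in KO with IL-4 and for 7 of 8 in unstimulated KO, where H2-DMa was equal. It lay below replicate 1 for 8 of 8 members in WT with IL-4 and for 6 of 8 in unstimulated WT. The median difference was 0.24 and 0.08 in the KO groups and −0.46 and −0.14 in the WT groups, each with IL-4 and unstimulated in turn, while between 47.13% and 49.76% of all genes were higher in replicate 2. Summed B cell marker intensity moved the same way between duplicates. It was 3620 and 4255 in KO with IL-4, against 3652 and 4013 in unstimulated KO. In WT it was 4487 and 3100 with IL-4, against 4446 and 3239 unstimulated. By single marker, replicate 2 exceeded replicate 1 by more than 0.001 log2 for 7 of 11 in KO with IL-4 and 9 of 11 in unstimulated KO. It did so for 2 of 11 in WT with IL-4 and 1 of 11 in unstimulated WT. Cd79b was the brightest of the 11 on every array, so it weighs most in the sum. Cd79b had 1449.7 and 1709 in KO with IL-4, against 1229 and 1347 in unstimulated KO, and 1729 and 1094 in WT with IL-4, against 1362 and 893 in unstimulated WT. The part of B cell RNA in the spread of the duplicates was not tested.

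Between conditions, the summed B cell marker intensity overlapped in each genotype, with group means of 3937 with IL-4 against 3833 unstimulated in KO, and 3793 against 3843 in WT. That sum nets opposite movements and cannot show whether the share of B cells was unchanged. Mean Fcrla intensity was 322 with IL-4 against 825 unstimulated in KO, and 566 against 1079 in WT. Mean Pou2af1 intensity was 733 against 334 in KO and 621 against 344 in WT. Single B cell markers did pass. Pou2af1, a B cell coactivator, rose in KO (1.29) and WT (0.99), and Cd22, an inhibitory receptor, rose in KO (0.76), while the kinase Blk (−1.19 in KO and −0.76 in WT) and Fcrla (−1.57 and −1.06) fell (limma adjusted p between 0.0002095 and 0.0111). Of the 11 markers, 7 did not pass in KO and 8 did not in WT. With single arrays left out, the calls ended for Cd22 in KO and for Pou2af1, Blk and Fcrla in WT (adjusted p up to 0.1551), and the Fcrla calls also ended with a robust variance estimate (0.06322 in KO and 0.1772 in WT). The 7 dendritic and small macrophage markers summed to 964 and 948 in KO with IL-4, against 967 and 955 unstimulated, and to 998 and 1074 in WT with IL-4, against 1241 and 1193 unstimulated. Of these 7 genes, Batf3 rose (2.03 in KO and 1.57 in WT, and 1.09 and 0.86 without background correction), Clec4b1 and Dpp4 fell, and 4 did not pass in each genotype. The Clec4b1 call in KO ended when any of 3 arrays was left out (adjusted p up to 0.06796). Of the large peritoneal macrophage markers, 3 of 9 rose and 2 fell in KO, and 3 rose and 1 fell in WT (1 to 2 and 0 to 1 fell with an array left out). Of 5 macrophage markers 1, Cd14, fell in each genotype (0 to 2 fell in KO with an array left out). No T and NK cell marker of 7 passed in KO by limma (2 at an unadjusted p under 0.05) and 2 fell in WT (0 to 2 with an array left out). Of 7 neutrophil and mast cell markers 1 fell in KO (0 to 1) and 3 in WT (1 to 3). The part of these markers in the H2-DM response was not tested. Over all genes, 3015 in KO and 2812 in WT had an unadjusted limma p under 0.05. At the adjusted threshold, 9.39% of all genes rose and 9.87% fell in KO, and 7.81% rose and 8.6% fell in WT.

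**Figure D4:**
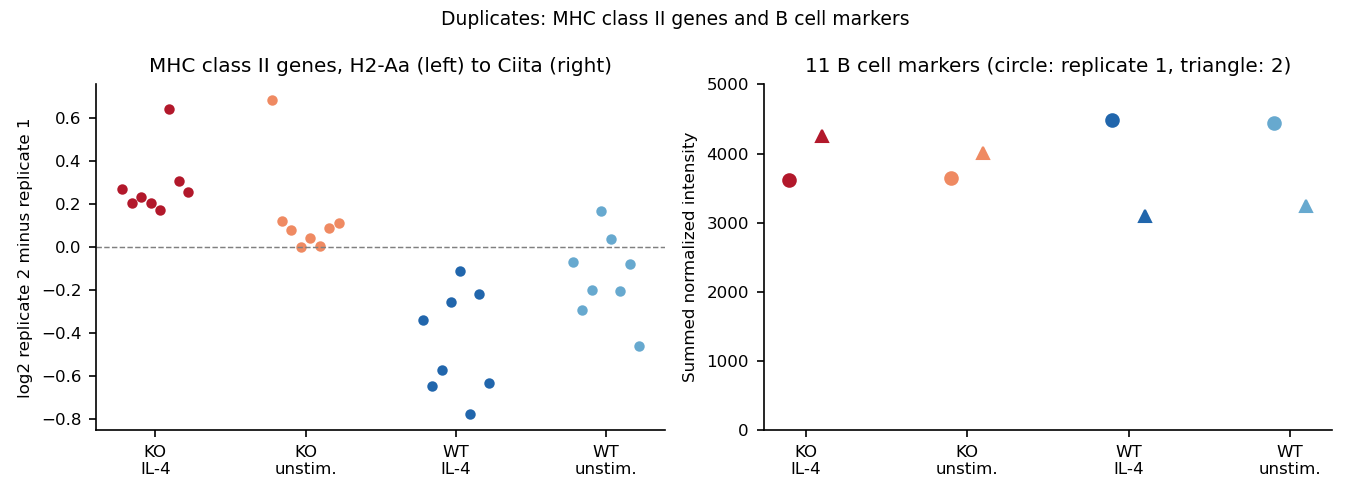
Left, log2 intensity of replicate 2 minus replicate 1 for the 8 class II genes in each group, in the order H2-Aa, H2-Ab1, H2-Eb1, H2-DMa, H2-DMb1, H2-DMb2, Cd74 and Ciita; right, the summed intensity of 11 B cell markers on each array (linear axis from 0). Both are higher in replicate 2 of the KO groups and lower in replicate 2 of the WT groups, except H2-DMa and H2-DMb1 in unstimulated WT and the equal H2-DMa in unstimulated KO.

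In the main fit, no member differed between KO and WT macrophages beyond the test's threshold, in either condition. With IL-4, 0 of 8 members passed (5.09% of all genes did), with log2 differences of −0.10 to 0.35 whose 95% intervals together span −0.46 to 0.74. Unstimulated, 0 of 8 passed (5.25% of all genes did), with differences of −0.11 to 0.31 and intervals spanning −0.39 to 0.72. At an unadjusted limma p under 0.05 there were 1 of 8 with IL-4, H2-DMa, and 0 of 8 unstimulated, beside 1647 and 1599 of all genes. Both KO arrays lay above both WT arrays for 3 of 8 members with IL-4, as for 26.6% of all genes. Unstimulated, they did so for 3 of 8 (23.6% of all genes) and lay below for 1 of 8, Cd74 (21.1% of all genes). With IL-4, H2-DMa had 1786 and 2047 in KO macrophages, against 1741 and 1468 in WT macrophages. Its difference was 0.27 ± 0.11 (limma adjusted p = 0.2308). Ciita was higher on both unstimulated KO arrays (237 and 251) than on both unstimulated WT arrays (234 and 188), by 0.31 ± 0.19 (adjusted p = 0.4973). The intervals reach 0.74 for H2-Aa with IL-4 and 0.72 for Ciita unstimulated, so the p-values do not show that the genotypes are alike. With the replicate block within genotype, H2-Aa passed with IL-4 (limma adjusted p = 0.02877), where 9.82% of all genes did.

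The response to IL-4 itself was compared between the genotypes as KO response minus WT response. It passed for 0 of 8 members and for 0.122% of all genes, and 0 of 8 members and 647 of all genes had an unadjusted limma p under 0.05. The differences ran from −0.31 for Ciita to 0.24 for H2-DMa, with 95% intervals spanning −0.90 to 0.74. All 5 comparisons draw on the same 8 arrays, so they are not independent of each other. Markers of large peritoneal macrophages, the resident population, did differ between the genotypes. Their sum was 9859 and 10878 in KO with IL-4, against 6061 and 6007 in WT with IL-4. It was 11496 and 10835 in unstimulated KO, against 5354 and 5336 in unstimulated WT. Most of the gap in that sum was Vsig4. Its intensities were 5348 and 5823 in KO with IL-4, against 2617 and 2366 in WT with IL-4. Unstimulated, Vsig4 had 8006 and 6936 in KO, against 2807 and 2494 in WT. Of the 9 tested, 6 were higher in KO with IL-4 (2 to 6 with an array left out) and 5 unstimulated, and Timd4, named after its values were seen, had estimates of −0.22 and −0.52 that did not pass. Of the dendritic and small macrophage markers, 1 of 7, Clec4b1, was lower in KO, by −0.63 with IL-4 (limma adjusted p = 0.02841) and −0.99 unstimulated (0.001312), and the call with IL-4 ended without any of 3 arrays (adjusted p up to 0.3019). Among the macrophage markers, Adgre1 was higher in KO (0.59 with IL-4 and 0.60 unstimulated) and Cd14 lower (−0.55 and −0.64). Of the 7 T and NK cell markers tested, 3 were higher in KO with IL-4 (1 to 3 with an array left out) and 0 unstimulated. Of the 7 neutrophil and mast cell markers tested, 1 was lower in KO with IL-4 (0 to 2) and 2 unstimulated (1 to 3). The part of these markers in the genotype comparison was not tested. Over all genes, 2.44% were called higher in KO with IL-4 and 2.62% unstimulated, beside 5.09% and 5.25% called in either direction.

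**Figure D5:**
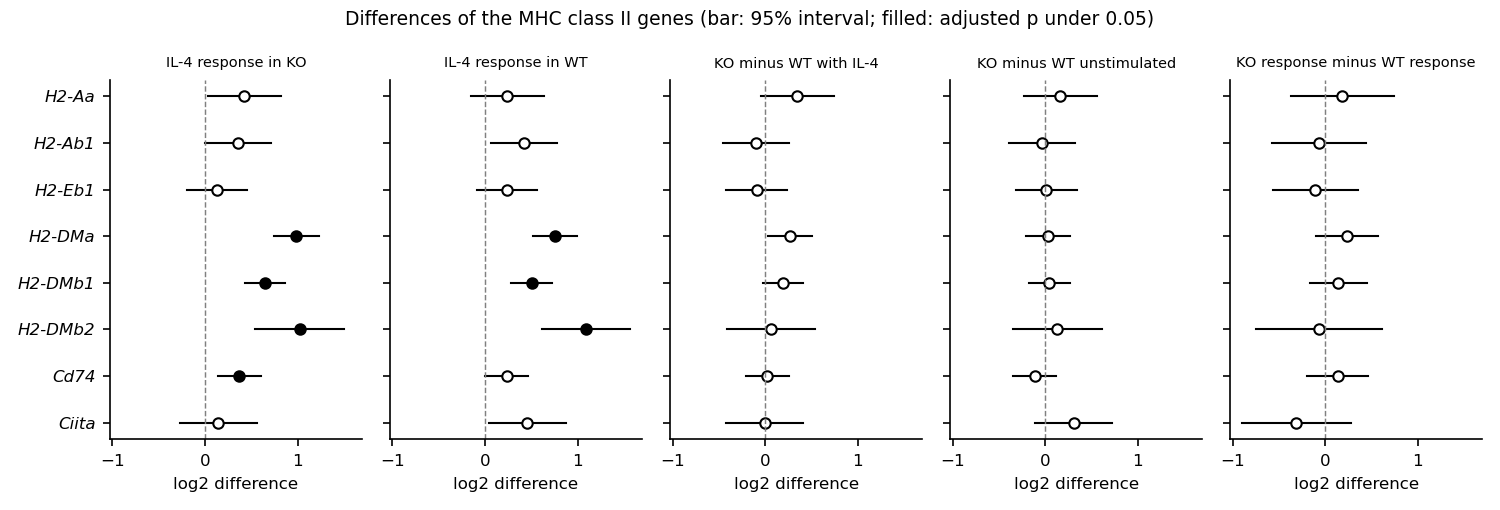
Log2 differences of the 8 class II genes with 95% intervals for the 5 comparisons named above the panels; filled points have an adjusted p under 0.05 over all genes. Filled points are H2-DMa, H2-DMb1 and H2-DMb2 in both IL-4 responses and Cd74 in the KO response, and no point is filled in the comparisons between genotypes.

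The class II genes outside the set did not pass with IL-4. H2-Oa and H2-Ob form H2-DO, an inhibitor of H2-DM found mostly in B cells, and H2-Eb2 is a further beta chain gene. H2-Ob had intensities of 335 and 404 in KO with IL-4, against 462 and 564 in unstimulated KO, and 433 and 282 in WT with IL-4, against 433 and 315 in unstimulated WT. Its change was −0.56 in KO (limma adjusted p = 0.1097) and −0.10 in WT (0.8253). H2-Oa changed by −0.05 in KO (adjusted p = 0.8988) and −0.11 in WT (0.7439). None of these 3 genes passed in any of the 5 comparisons by limma, where 19.3% of all genes passed in the KO response and 16.4% in the WT response. At an unadjusted p under 0.05 there were 1 in the KO response and 0 in the WT response, beside 3015 and 2812 of all genes.

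The factors that hold CIITA on class II promoters passed in none of the comparisons. Of 7 such genes, 6 were tested, Rfx5 being above background on 0 of 8 arrays, and by limma 0 of 6 passed. Beside them, 19.3% of all genes passed in the KO response and 16.4% in the WT response. Between genotypes 5.09% passed with IL-4 and 5.25% unstimulated, and 0.122% in the difference of responses. At an unadjusted p under 0.05 there was 1 of 6 in each IL-4 response, beside 3015 of all genes in KO and 2812 in WT. Nfyc, a subunit of the Y box factor, had intensities of 1298 and 1239.98 in KO with IL-4, against 1199 and 1176 in unstimulated KO. It changed by 0.10 in KO (adjusted p = 0.5832) and 0.23 in WT (0.1781). Rfxap, a subunit of the X box factor, changed by −0.33 (0.1124) and −0.18 (0.4206).

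Of 14 regulators upstream of Ciita tested, 5 rose in KO, beside 9.39% of all genes, and 5 in WT, beside 7.81% (3 to 5 in each with an array left out). None fell, and 9 of 14 did not pass in each genotype. Between genotypes, 2 of 14 were lower in KO with IL-4 and 1 unstimulated, and 0 were higher. Beside these, 5.09% and 5.25% of all genes differed in either direction. Socs1, the feedback inhibitor of cytokine receptor signalling, had intensities of 139 and 149 in KO with IL-4, against 92.9 and 96.7 in unstimulated KO, and 140.4 and 140.9 in WT with IL-4, against 93.7 and 96.0 in unstimulated WT. It rose by 1.42 ± 0.13 in KO (limma adjusted p = 6.382e-06) and 1.35 ± 0.13 in WT (adjusted p = 1.174e-05). Its probe was above background on 7 of 8 arrays, and without background correction the changes were 0.60 in KO and 0.57 in WT. Jak2, a kinase of the interferon gamma receptor, rose by 0.90 ± 0.10 in KO (adjusted p = 4.283e-05) and 0.75 ± 0.10 in WT (0.0002325). Irf4 rose by 0.73 and 0.79 (0.42 and 0.47 without background correction), Tgfb1, known to restrain Ciita, by 0.60 and 0.63, and Irf2, named after its values were seen, by 0.29 in each. The Irf4 and Tgfb1 calls ended in each genotype when certain arrays were left out, with adjusted p between 0.05676 and 0.07457. Direct targets of interferon gamma, the main inducer of Ciita in macrophages, passed for 0 of 9 tested genes in either response by limma. Over all genes, 19.3% passed in KO and 16.4% in WT. At an unadjusted limma p under 0.05 there were 0 of 9 targets in KO and 4 of 9 in WT, beside 3015 and 2812 of 9856 genes. Among them Gbp2 varied between duplicates, with 194 and 286 in KO with IL-4, against 208 and 449 in unstimulated KO, and 290 and 512 in WT with IL-4, against 268 and 1031 in unstimulated WT.

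With IL-4, genes listed for endosomal antigen processing, protease inhibitors among them, and for class II turnover and tetraspanins fell or did not pass. Of 10 endosomal processing genes, 3 fell in KO (1 to 3 with an array left out) and 1 in WT, and 0 rose, beside 9.87% and 8.6% of all genes lower. The protease Ctsh had intensities of 3833 and 3370.06 in KO with IL-4, against 6454 and 6251 in unstimulated KO, and 2868 and 4005 in WT with IL-4, against 5194 and 5514 in unstimulated WT. It fell by 0.83 ± 0.13 in KO (limma adjusted p = 0.0004708) and by 0.67 ± 0.13 in WT (adjusted p = 0.002831), where the change was −0.42 without WT IL-4 replicate 1 and the call held. Lgmn, an asparagine-specific endosomal protease, fell in KO (−0.41, adjusted p = 0.006595, ended without unstimulated KO replicate 1 at 0.05681), and its WT change was 0.11 (0.4963). Lgmn was also higher in KO than in WT, by 1.03 with IL-4 (adjusted p = 9.857e-06) and 1.54 unstimulated (3.106e-07). Cstb, a cathepsin inhibitor, fell in KO (−0.27, adjusted p = 0.02245), a call that ended when any of 3 arrays was left out, with adjusted p up to 0.1602.

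Of 7 turnover and tetraspanin genes, 3 fell in each genotype (1 to 3 in KO with an array left out). Marchf1, the ubiquitin ligase that sends class II to degradation, had intensities of 228 and 234 in KO with IL-4, against 297 and 301 in unstimulated KO, and 279 and 281 in WT with IL-4, against 403 and 394 in unstimulated WT. It fell by 0.50 ± 0.10 in KO (limma adjusted p = 0.003866) and by 0.63 ± 0.10 in WT (adjusted p = 0.0008285). The tetraspanins Cd82 (−0.56 and −0.49) and Cd81 (−0.30 and −0.46) fell as well, with calls that ended for Cd82 in both genotypes and for Cd81 in KO when single arrays were left out (adjusted p up to 0.1674). Cd82 was lower in KO than in WT, by −0.84 with IL-4 (limma adjusted p = 0.0007956) and −0.76 unstimulated (0.001633). Marchf1 was lower in unstimulated KO (−0.51, 0.008463) and did not pass with IL-4 (−0.38, 0.05337). The unstimulated call ended when single arrays were left out, at changes of −0.53 to −0.49. Cd63 was higher in KO with IL-4 (0.45, 0.01943) and unstimulated (0.39, 0.04194). Both Cd63 calls ended with the mean of its probes (0.21 and 0.2973).

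Genes of the MHC class I pathway, which presents peptides from the cytosol, were tested as well. Of 17 genes tested, 1 was higher and 1 lower in KO, where 9.39% of all genes were higher and 9.87% lower. In WT 0 were higher and 2 lower, where 7.81% of all genes were higher and 8.6% lower. The proteasome activator Psme2 rose in KO by 0.46 (limma adjusted p = 0.01629) and the chaperone Pdia3 fell by 0.30 (0.01924). In WT, Nlrc5, the class I counterpart of Ciita, fell by 0.70 (0.005311, and by 0.33 without background correction) and B2m by 0.29 (0.03119). All 4 of these calls ended when single arrays were left out, with adjusted p up to 0.227. Whether these lists and the class II genes differ in response was not tested.

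Genes were ranked by how closely their centred log2 values over the 8 arrays followed the mean profile of H2-Aa, H2-Ab1, H2-Eb1 and Cd74, measured as the root mean square distance among 9848 other genes. The nearest were Zfp397 (0.082), 4632404H12Rik (0.094), Mrps7 (0.097), Pfdn2 (0.097) and Uchl3 (0.099). The members' own distances were 0.084 for Cd74, 0.093 for H2-Eb1, 0.097 for H2-Ab1, 0.143 for Ciita and 0.167 for H2-Aa. All of these but Ciita make up the profile, so their nearness is partly built in. H2-DMb1 (0.184), H2-DMa (0.316) and H2-DMb2 (0.406) lay further off. This distance also grows with the size of a gene's changes. Correlations with the profile over the 8 arrays were 0.80, 0.79 and 0.91 in that order, beside 0.83 for H2-Aa and 0.90 for H2-Eb1. The profile spans only 0.62 log2 over 8 arrays, so many genes come close to it.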

How the data were processed

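Intensities were deposited by the authors as a linear, normalized value per probe, and the submitters' processing notes name GenomeStudio but no settings. From the values, the sorted columns differ by at most 0.57 units and the lowest value is 78.45, so they are read as quantile-normalized without background subtraction. The 8 signal and 8 detection p columns of a non-normalized table were not used because their headings match no sample label. Background was corrected with normexp (offset 16) before log2, so folds of dim genes depend on it. A probe was above background past the mode of an array's low values plus 1.645 SD (93.14 to 93.33 units, 54.06% to 54.75% of probes). Of 25697 probes, 23978 have 1 symbol, 0 several and 1719 none. Of the named, 23962 matched RefSeq by gene identifier. Probes above background on both arrays of a group were kept (14430, 13579 named), and the brightest on average stood for a gene (9856 genes, 2611 with a choice). All 8 arrays entered a single limma fit with a mean per group (limma 3.58.1, R 4.3.3; eBayes with trend, 4 residual and 9.314 prior degrees of freedom), Benjamini-Hochberg over all genes, threshold 0.05, and tested on simulated data. Confidence intervals are 95%. Figures used matplotlib 3.10.9, and promoter alignments Biopython 1.88.

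Members and lists were chosen with earlier results of these data known. The genes named are the members, up to 4 genes per list (the largest log2 change among those passing in any comparison, else the 2 brightest), the 5 genes nearest the class II profile and Fcer1g. Genes named outside this rule after their values were seen are Flt3, Xcr1, Ccr2, Ccr7, Rfx5, H2-Ea, H2-Eb2, Cd79a, Cd79b, Irf2 and Timd4. Lists covered other class II genes, promoter factors, Ciita regulators, endosomal processing, turnover and tetraspanins, class I, interferon gamma targets, and markers of B, dendritic and small macrophage, large macrophage, macrophage, T and NK, and neutrophil and mast cells. Alternatives were other background corrections, filters, scaling, probe rules and variance estimates, replicate blocks, and each array left out with genes and probes kept.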

Additional observations from a re-analysis of the deposited data

How the results depend on the processing

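Over the alternatives other than leaving out an array, the members' differences kept their side of the threshold in 430 cases, passed newly in 6 and ceased to pass in 4, and none turned sign. With 1 array left out and the genes and probes kept as reported, 282 were unchanged in call and sign, 6 passed newly, 4 ceased to pass and 28 turned sign. Genes past the threshold in the IL-4 response numbered 1898 in KO (1128 to 1884 with an array left out) and 1618 in WT (975 to 1584), and members 4 (2 to 5) and 3 (3 to 6). KO minus WT gave 502 genes with IL-4 (257 to 479) and 517 unstimulated (293 to 523), and the difference between responses 12 (3 to 10), which became 19 without background correction, 19 without the filter on dim probes and 4 with probes above background on all 8 arrays. Sign-turning ranges with an array left out were, for H2-Eb1 in WT, −0.049 to 0.52. For KO minus WT with IL-4 they were −0.42 to 0.23 for H2-Ab1, −0.38 to 0.19 for H2-Eb1, −0.33 to 0.45 for H2-DMb2, −0.13 to 0.18 for Cd74 and −0.32 to 0.31 for Ciita. For KO minus WT unstimulated they were −0.18 to 0.50 for H2-Aa, −0.18 to 0.12 for H2-Ab1, −0.085 to 0.11 for H2-Eb1 and −0.051 to 0.12 for H2-DMa. For KO response minus WT response they were −0.16 to 0.53 for H2-Aa, −0.39 to 0.26 for H2-Ab1, −0.39 to 0.18 for H2-Eb1, −0.46 to 0.32 for H2-DMb2, −0.018 to 0.29 for Cd74 and −0.63 to 0.0034 for Ciita. The labels do not say what a replicate number shares. Replicate 2 minus replicate 1 correlated across genes at 0.23 between the KO groups, 0.15 between the WT groups and −0.09 to 0.01 across genotypes. With the replicate number as a block, genes past the threshold were 1952, 1716, 550, 567 and 16 (KO response, WT response, KO minus WT with IL-4, unstimulated, difference of responses), and no member call changed. With the replicate block within genotype, members were 6 in KO (beside 11.8% of all genes higher) and 6 in WT (beside 10.4%), adding H2-Aa and H2-Ab1 in KO and H2-Ab1, Ciita and Cd74 in WT (H2-Ab1 at limma adjusted p = 0.001945 and 0.0003095), genes were 2486 and 2271, KO minus WT called 968 genes and 1 member (H2-Aa, adjusted p = 0.02877) with IL-4 and 930 genes unstimulated, and the difference of responses 90. The cause of these changes was not tested. All 12 member probes were above background on every array, but the size of the changes of dimmer members varied with the processing. Over the alternatives other than leaving out an array, the Ciita change in WT ran from 0.33 to 0.46. That of H2-DMb2 ran from 0.87 to 1.02 in KO and from 0.92 to 1.09 in WT.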
